A study of Mus musculus with 4 samples.

Results

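The colony-stimulating factors and their receptors were followed through the cell classes of the mouse mammary gland by 6 genes, *Csf1*, *Il34*, *Csf2*, *Csf3*, *Csf1r* and *Csf3r*, each matched by its symbol among the 28693 genes of the count tables. All 6 were present. The data were 4 libraries of droplet-based 3′ single-cell RNA sequencing, 1 per mouse, from live-sorted cells of the mammary glands of adult nulliparous mice. All 4 mice carried floxed Lats1 and Lats2 alleles, the kinases of the Hippo pathway that restrain YAP and TAZ, and an R26-lsl-EYFP reporter, and all were injected with 2 mg tamoxifen on 5 days and collected 7 days after the last dose. The 2 control (CTL) mice, which the labels call WT, had no Cre. The 2 LATS1/2-KO mice also carried Krt8-CreERT2, which acts in *Krt8*-expressing luminal cells, and EYFP is meant to mark cells in which Cre was active. The reporter was heterozygous in both CTL mice and in LATS1/2-KO replicate 1, and homozygous in LATS1/2-KO replicate 2.

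CSF1 and IL-34 are the ligands of the receptor tyrosine kinase CSF1R, on which most tissue macrophages depend for their survival and proliferation. In the mammary gland CSF1 is known for the recruitment of macrophages to growing ducts and to tumours, where both epithelium and fibroblasts can make it. CSF2 (GM-CSF) and CSF3 (G-CSF) act on myeloid cells through other receptors, CSF3 chiefly on neutrophils through CSF3R.

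*Csf1* lies at chr3:107741048-107760469 of the mouse assembly GRCm38 on the minus strand (GENCODE), *Il34* at chr8:110741829-110805924 on the minus strand, *Csf2* at chr11:54247271-54249667 on the minus strand, *Csf3* at chr11:98701263-98703629 on the plus strand and *Csf3r* at chr4:126024550-126044440 on the plus strand. RefSeq promoter entries of GRCm38.p6 were matched for 3 of the 6 genes (*Csf1*, *Csf2* and *Csf3r*). The 250 bases upstream of the RefSeq start of *Csf1*, the ligand with the most transcripts in LATS1/2-KO luminal cells, and of *Csf2*, which was nearly absent from CTL luminal cells, are shown because YAP and TAZ act through TEAD factors. Each is read 5′ to 3′ on the minus strand, with the TEAD core GGAATG in capitals where it was found on either strand. RefSeq starts *Csf2* 232 bases further upstream than GENCODE does, so its window lies that far from the GENCODE start, whereas the *Csf1* window adjoins both starts.
Csf1 promoter, chr3:107760470-107760719: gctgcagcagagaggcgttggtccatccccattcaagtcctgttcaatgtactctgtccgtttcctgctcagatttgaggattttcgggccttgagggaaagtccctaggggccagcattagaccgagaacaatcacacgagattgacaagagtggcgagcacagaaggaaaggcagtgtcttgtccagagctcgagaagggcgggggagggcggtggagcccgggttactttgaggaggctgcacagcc
Csf2 promoter, chr11:54249900-54250149: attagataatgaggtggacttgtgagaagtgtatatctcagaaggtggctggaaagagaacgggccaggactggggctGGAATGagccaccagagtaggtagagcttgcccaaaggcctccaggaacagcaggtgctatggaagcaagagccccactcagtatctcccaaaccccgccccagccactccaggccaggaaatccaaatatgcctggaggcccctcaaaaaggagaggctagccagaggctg
The upstream window of *Csf2* held GGAATG once, starting at base 79, and those of *Csf1* and *Csf3r* did not hold it. Of 32851 promoter windows of this length, 12.6% held GGAATG. The AP-1 letters TGANTCA, present in 6.75% of windows, and the CRE letters TGACGTCA, present in 1.55%, were in none of the 3 windows. These matches describe letters only, and regions outside the windows were not searched.

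Cells were assigned to classes by marker genes that include none of the 6 genes. After quality control 18200 cells were kept, 3515 to 5272 per library, with 38792520 to 46810771 unique molecular identifiers (UMIs, 1 per captured transcript) per library and medians of 5962.5 to 10141 UMIs per cell. Luminal cells numbered 4301 and 3093 in CTL and 2830 and 2576 in LATS1/2-KO, in the order of replicates 1 and 2, which holds throughout. Fibroblasts numbered 61 and 26 in CTL and 404 and 1078 in LATS1/2-KO, and macrophages 8 and 7 in CTL and 329 and 440 in LATS1/2-KO. Macrophages were 0.181% ± 0.0257 of CTL cells and 7.83% ± 0.731 of LATS1/2-KO cells (SD, n = 2), a difference of 7.65 percentage points at an exact two-sided permutation p of 0.333, the smallest that 2 mice against 2 allow. Levels are CPM, the UMIs of a gene per 1000000 UMIs of the class, and differences are log2 fold changes ± SE from edgeR's quasi-likelihood test on counts summed per class and mouse, with Benjamini-Hochberg adjustment over all genes and a threshold of 0.05.

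The model was checked first. *Lats1* was at 23.9 and 24.0 CPM in CTL luminal cells, at 14.9 and 16.3 in LATS1/2-KO luminal cells, and at 9.89 and 11 in those with at least 1 EYFP UMI. *Lats2* was higher, not lower, at 13.6 and 14.7 CPM in CTL and 28.2 and 30.3 in LATS1/2-KO luminal cells. A 3′ library reads the end of a transcript, which need not lie in the deleted exons, so that *Lats2* does not check the deletion. EYFP UMIs were found in 12 and 12 CTL luminal cells and in 655 and 766 LATS1/2-KO luminal cells, 23.1% and 29.7% of them. Classes outside the luminal lineage also carried EYFP UMIs in LATS1/2-KO mice, in 4.70% and 2.88% of fibroblasts and 2.43% and 4.55% of macrophages. With cells thinned to 2000 UMIs these shares were 2.45% and 1.68% and 0.787% and 1.89%, against 11.1% and 15.4% of luminal cells, so a single EYFP UMI does not show that a cell had recombined.

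*Csf1* rose in LATS1/2-KO luminal cells of both hormone receptor classes. It was at 24.0 and 15.3 CPM in CTL luminal cells and at 77.1 and 93.7 CPM in LATS1/2-KO luminal cells. Both LATS1/2-KO libraries stood above both CTL libraries, and the rise was 3.75-fold (log2 1.91 ± 0.228, n = 2 per condition, adjusted p = 0.00137 by edgeR's quasi-likelihood test with Benjamini-Hochberg adjustment). In this comparison 60.6% of the 14370 genes tested passed the same threshold, and so did each of the 5 members that had enough counts, 4 of them higher and 1 lower, where 31.4% of all genes (4508) were higher and 29.2% (4203) lower. With scaling by library totals alone 5838 genes were higher and 3046 lower. *Csf3r*, with 0 to 4 UMIs per library in luminal cells, was not tested.

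In luminal ER- cells, the class of luminal progenitors, *Csf1* was at 31.7 and 22.2 CPM in CTL and at 82.7 and 96.2 CPM in LATS1/2-KO. The rise was 2.59-fold (log2 1.37 ± 0.171, adjusted p = 0.000474 by edgeR's quasi-likelihood test, 64.6% of genes called). In luminal ER+ cells, the hormone-sensing class, the CTL levels were lower, at 11.1 and 6.59 CPM, and the LATS1/2-KO levels were 41.1 and 40.2 CPM. The rise in ER+ cells was 4.32-fold (log2 2.11 ± 0.261, adjusted p = 0.00204 by edgeR's quasi-likelihood test, 40% of genes called). The difference between the effects in the ER+ and the ER- class was 0.74 ± 0.335 on the log2 scale and did not pass the threshold (adjusted p = 0.158 by edgeR's quasi-likelihood test of the interaction). The ER+ rise rested partly on few cells. The 10 richest cells held 47.0% and 64.2% of the ER+ *Csf1* UMIs in LATS1/2-KO, against 22.8% and 27.0% in CTL. The ER+ result also rested on how the class was drawn: with classes taken from clusters in place of single cells, the ER+ difference was -0.094 (adjusted p = 0.897, same test). In that setting the cluster with most *Csf1* UMIs of LATS1/2-KO ER+ cells counted as ER-.

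More cells carried *Csf1* and each held more of it. A *Csf1* UMI was found in 13.9% and 12.1% of CTL luminal cells and in 28.9% and 32.6% of LATS1/2-KO luminal cells, at median depths of 8253 and 10749 against 8300 and 8972.5 UMIs per cell. With each cell thinned to 2000 UMIs the shares were 4.39% and 3.21% against 10.2% and 11.4%. T and NK cells gave 2.92% and 3.90% in CTL and 1.32% in LATS1/2-KO replicate 2, at medians of 2780.5 to 3165 UMIs, and 0% to 2.82% after thinning. Their CTL levels were 6.98 and 26.6 CPM, and whether these shares are background was not tested. Among luminal cells with a *Csf1* UMI, CTL cells averaged 1.72 and 1.59 of them and LATS1/2-KO cells averaged 2.70 and 3.28, and the richest single LATS1/2-KO cells held 34 and 64.

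**Figure D1:**
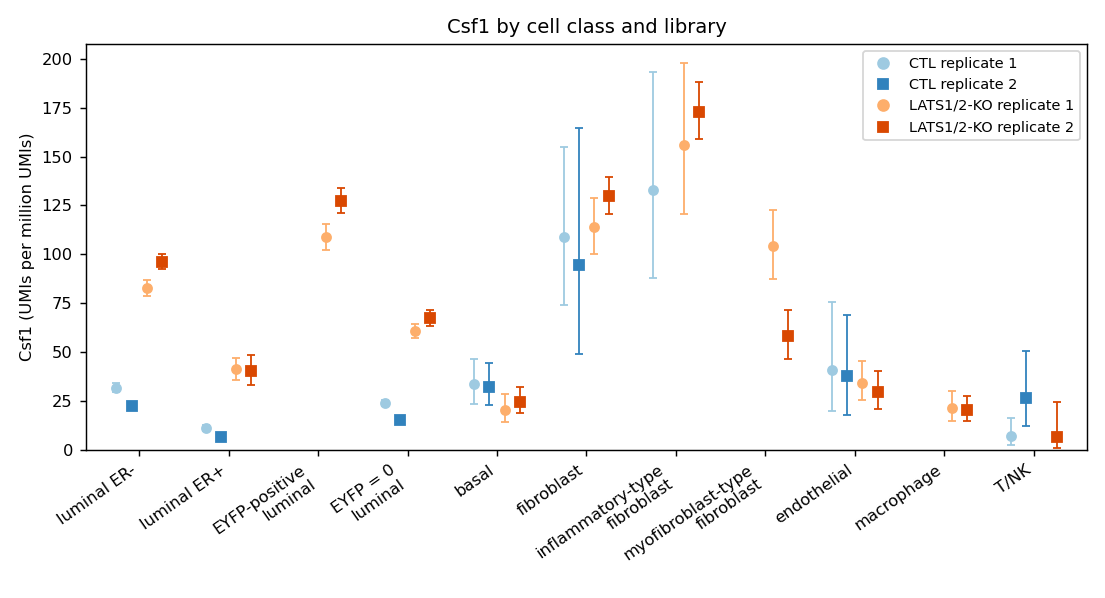
*Csf1* in CPM (vertical axis) for 11 cell classes and subclasses (horizontal axis), 1 point per library with at least 20 cells of the class; bars are 95% Poisson intervals and cover counting error only. Both LATS1/2-KO libraries lie above both CTL libraries in luminal ER- and ER+ cells, and the EYFP-positive luminal cells lie near the fibroblasts.

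Within the LATS1/2-KO mice *Csf1* was higher in EYFP-positive than in EYFP = 0 luminal cells. The 655 and 766 EYFP-positive cells had 109 and 127 CPM, and the 2175 and 1810 cells with no EYFP UMI had 60.7 and 67.4 CPM. EYFP-positive cells were higher in both mice, by 1.79 and 1.89 times in CPM and 1.83-fold in the test with the mouse as block (log2 0.87 ± 0.0725, adjusted p = 1.06e-06 by edgeR's quasi-likelihood test). In this comparison 38.8% of genes were called, 18.5% higher and 20.4% lower. Among ER- cells alone the difference was 0.89 ± 0.0731 on the log2 scale (adjusted p = 6.44e-09, same test, 39.8% of genes called).

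EYFP-positive cells were also deeper, with medians of 13446 and 15207 UMIs against 7104 and 7099.5 in EYFP = 0 cells. Per cell, the *Csf1* count was therefore further apart than the CPM, at 1.63 and 2.14 UMIs in EYFP-positive and 0.526 and 0.615 UMIs in EYFP = 0 cells. A *Csf1* UMI was found in 49.3% and 53.5% of EYFP-positive cells and in 22.7% and 23.7% of EYFP = 0 cells, a mean gap of 28.2 percentage points. The gap shrank to 7.28 points when all cells were thinned to 2000 UMIs, with shares of 14.8% and 17.3% against 8.74% and 8.79%. The groups stayed those of the full EYFP counts, so depth still shaped them. After thinning 45.1% and 49.4% of the EYFP-positive cells kept an EYFP UMI.

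The EYFP = 0 cells of LATS1/2-KO mice still stood above CTL. Their *Csf1* level was 2.80-fold that of CTL luminal cells (log2 1.49 ± 0.217, adjusted p = 0.00287 by edgeR's quasi-likelihood test, 51.5% of genes called). The EYFP-positive cells were 5.20-fold above the same CTL libraries (log2 2.38 ± 0.220, adjusted p = 0.000252, same test, 65% of genes called). These comparisons share their CTL sums. How many of the EYFP = 0 cells had recombined was not measured.

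The LATS1/2-KO luminal cells fell into a high and a low *Csf1* group when the 18200 cells were clustered on their 3000 most variable genes. Unlike the class markers, these genes were chosen without leaving out *Csf1*, *Il34* or EYFP. The clusters may therefore depend in part on *Csf1*, *Il34* and EYFP themselves, which was not tested. Differences between clusters in these genes and in the share of EYFP-positive cells are thus not independent findings. Of 14 clusters, numbered here from 0, cluster 11 held 35.8% and 31.0% of the LATS1/2-KO ER- cells and had 131 and 159 CPM of *Csf1* in them. Cluster 10 held 61.6% and 67.0% of the ER- cells, with 28.3 and 34.2 CPM, near the 31.6 and 22.3 CPM of cluster 0, which held nearly all CTL ER- cells. Nearly every luminal cluster came from 1 condition, so these values are a description with no test.

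The level of *Csf1* in cluster 11 was about the same with and without an EYFP UMI. EYFP-positive cells of cluster 11 had 125 and 144 CPM and EYFP = 0 cells of cluster 11 had 127 and 154 CPM. In cluster 10 the levels were 41.0 and 48.3 CPM in EYFP-positive and 26.3 and 31.8 CPM in EYFP = 0 cells. What differed more was the makeup: cluster 11 held 75.6% and 76.5% of the EYFP-positive luminal cells and 25.6% and 20.5% of the EYFP = 0 luminal cells. The ER+ cells of LATS1/2-KO mice showed the same split, with 94.8 and 66.7 CPM in the 24.1% and 44.3% of them that lay in cluster 11 and 11.1 and 6.76 CPM in the 75.1% and 54.7% in cluster 9, against 5.44 to 17.1 CPM in the CTL ER+ clusters.

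Fibroblasts were the other main source of *Csf1*, and their level did not change detectably with the genotype of the gland. They were at 109 and 94.3 CPM in CTL and at 114 and 130 CPM in LATS1/2-KO. The lowest LATS1/2-KO value was above the highest CTL value, but the difference was 0.31 ± 0.300 on the log2 scale, with a 95% interval of -0.34 to 0.96 (adjusted p = 0.628 by edgeR's quasi-likelihood test, 5.53% of genes called). The CTL sums held only 31 and 12 *Csf1* UMIs, so a change within this interval was not detectable. The luminal and fibroblast effects differed by -1.44 ± 0.395 (fibroblast minus luminal), which missed the threshold (adjusted p = 0.0698 by edgeR's quasi-likelihood test of the interaction).

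Set side by side within each LATS1/2-KO mouse, EYFP-positive luminal cells and fibroblasts had nearly equal *Csf1* CPM, with ratios of 0.953 and 0.981. The blocked test, which scales the sums by TMM, put the EYFP-positive cells 0.30 ± 0.156 lower on the log2 scale, with an interval of -0.64 to 0.03 (adjusted p = 0.110 by edgeR's quasi-likelihood test, with 60.2% of genes called, 28.3% higher and 31.8% lower, against 4676 genes higher and 3246 lower with scaling by library totals alone). Scaled by library totals alone the difference in *Csf1* was -0.05, and it passed the threshold with cells thinned to 2000 UMIs (-0.47), classes taken from clusters (-0.51) or a stricter gate (-0.41). Per cell the order turned for EYFP-positive cells, with 1.63 and 2.14 *Csf1* UMIs each against 0.624 and 0.677 per fibroblast, ratios of 2.61 and 3.16. Median depths were 13446 and 15207 UMIs in EYFP-positive cells and 4330.5 and 4473 in fibroblasts. The part of depth in this turn was not tested. The EYFP = 0 luminal cells were below the fibroblasts, at 0.533 and 0.519 of their CPM (log2 -1.20 ± 0.130, adjusted p = 0.000161, same test, 50.6% of genes called). Per cell they also stayed below, at 0.843 and 0.908 of the fibroblast count.

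The fibroblasts were not uniform. Inflammatory-type fibroblasts, gated on markers such as *Pi16*, *Dpp4* and *Scara5*, had 156 and 173 CPM of *Csf1* in LATS1/2-KO mice, and myofibroblast-type fibroblasts, gated on *Lrrc15*, *Postn* and others, had 104 and 58.0 CPM. The myofibroblast type was lower in both mice (log2 -1.16 ± 0.181, adjusted p = 3.26e-09 by edgeR's quasi-likelihood test, 24% of genes called), by 1.5 times in replicate 1 and 2.99 times in replicate 2. EYFP-positive luminal cells were below the inflammatory type, at 0.697 and 0.736 of its CPM (log2 -0.71 ± 0.160, adjusted p = 3.15e-05, same test, 57.8% of genes called), while per cell they held 1.77 and 2.07 times as many *Csf1* UMIs. Both adjusted p-values use only the spread shared across genes, not the spread of *Csf1* between the mice.

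Counted over whole libraries, luminal cells gave most *Csf1* transcripts in both conditions, as they gave most of all transcripts. They held 89.3% and 85.0% of the 1150 and 698 *Csf1* UMIs of the CTL libraries and 81.1% and 72.6% of the 2724 and 3793 *Csf1* UMIs of the LATS1/2-KO libraries. Of the UMIs of all genes they held 91.6% and 90.9% in CTL and 73.9% and 65.7% in LATS1/2-KO. EYFP-positive luminal cells held 39.1% and 43.2% and EYFP = 0 luminal cells 42.0% and 29.3% of the LATS1/2-KO total, against 25.3% and 28.8%, and 48.6% and 36.9%, of all UMIs. The fibroblast share was 2.70% and 1.72% in CTL and 9.25% and 19.2% in LATS1/2-KO, and macrophages held 1.21% and 1.11% in LATS1/2-KO. These shares depend on how many cells of each class the dissociation released, so they describe the libraries and not the gland.

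**Figure D2:**
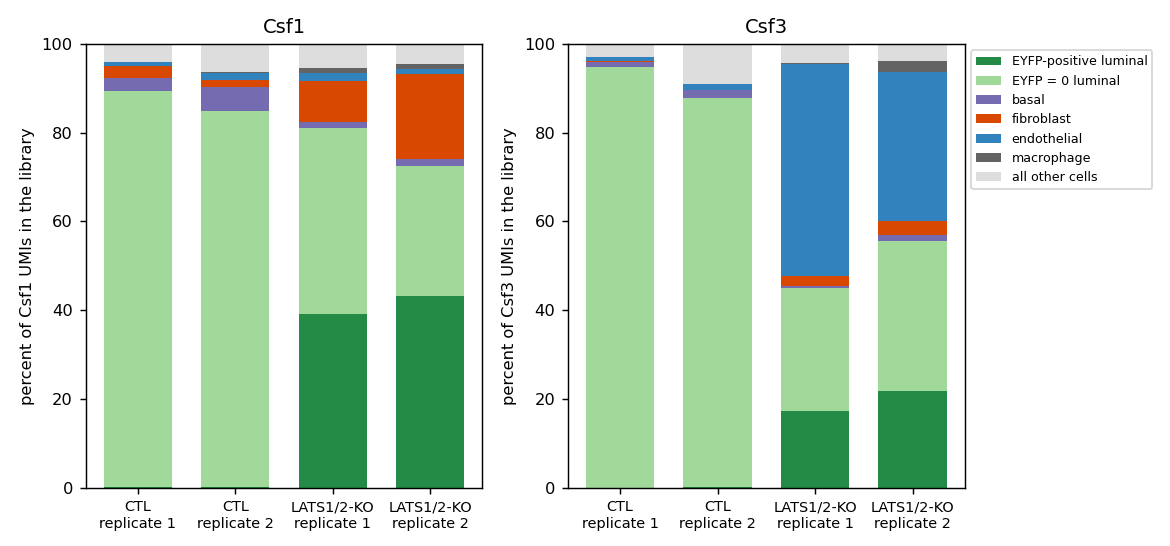
Share of all *Csf1* UMIs (left) and all *Csf3* UMIs (right) of a library, in percent (vertical axes), by cell class, with 1 stacked bar per library. Luminal cells hold 72.6% to 89.3% of *Csf1* in every library, and 65.7% to 91.6% of all UMIs. Endothelial cells hold 47.8% and 33.8% of *Csf3* in the LATS1/2-KO libraries, and 3.60% and 2.94% of all UMIs.

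No rise of *Csf1* was found in basal or endothelial cells. *Csf1* was at 33.5 and 32.3 CPM in CTL and 20.3 and 24.5 CPM in LATS1/2-KO basal cells, with no overlap between the groups. The difference of -0.58 ± 0.234 missed the threshold (adjusted p = 0.0783 by edgeR's quasi-likelihood test, 33.6% of genes called), and it passed with classes taken from clusters (-1.18), free RNA subtracted (-1.25), a stricter gate (-1.03) or the cells of highest Scrublet score removed (-0.73). The basal effect differed from the luminal effect by -2.35 ± 0.377 on the log2 scale (adjusted p = 0.00462, same test of the interaction). In endothelial cells *Csf1* was at 41.0 and 37.5 CPM in CTL and 34.4 and 29.6 CPM in LATS1/2-KO, a difference of -0.27 with an interval of -1.08 to 0.53 (adjusted p = 0.743, same test, 5.61% of genes called), and the endothelial effect was 2.01 ± 0.531 below the luminal effect without passing (adjusted p = 0.0516, same test of the interaction). Sums of LATS1/2-KO macrophages, the cells that read the ligand, held 21.3 and 20.2 CPM of *Csf1*. Free RNA was at most 38.2% and 33.9% of these sums by an upper estimate, and its part in this level was not tested.

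Ordered by mean CPM in LATS1/2-KO mice, *Csf1* ran from inflammatory-type fibroblasts (164 ± 12.2, SD, n = 2) to all fibroblasts (122 ± 11.2), EYFP-positive luminal cells (118 ± 13.3), EYFP = 0 luminal cells (64.1 ± 4.73), endothelial cells (32.0 ± 3.34), basal cells (22.4 ± 2.99) and macrophages (20.7 ± 0.792). All fibroblasts and EYFP-positive luminal cells overlapped in this order, as did basal cells and macrophages. In CTL the order was fibroblasts (102 ± 10.4), endothelial cells (39.3 ± 2.44), basal cells (32.9 ± 0.869) and luminal cells (19.6 ± 6.12). CTL luminal cells were thus below each of these classes, and LATS1/2-KO luminal cells (85.4 ± 11.7) were above basal and endothelial cells. The genes whose levels ran most like *Csf1* over 24 sums of class and library were *Glis2* (Pearson r = 0.868), *Ddah2* (0.820), *Ppib* (0.796), *Cyp39a1* (0.796) and *Timp2* (0.794), a description over sums that share libraries and depth.

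*Il34*, the other ligand of CSF1R, rose from near absence in luminal cells. CTL luminal cells held 27 and 14 *Il34* UMIs in all, 0.630 and 0.361 CPM, and LATS1/2-KO luminal cells held 531 and 556, or 18.5 and 18.9 CPM. The LATS1/2-KO values were close to each other and far above both CTL libraries, a 32.1-fold rise (log2 5.00 ± 0.239, adjusted p = 0.000123 by edgeR's quasi-likelihood test). In ER- cells the levels were 0.238 and 0.241 CPM in CTL and 19.3 and 18.8 CPM in LATS1/2-KO (log2 5.93 ± 0.213, adjusted p = 5.37e-06, same test). In ER+ cells they were 1.15 and 0.415 CPM in CTL and 9.56 and 10.3 CPM in LATS1/2-KO (log2 3.56 ± 0.468, adjusted p = 0.00246, same test). The rise in ER+ cells was smaller than that in ER- cells by 2.36 ± 0.569 on the log2 scale (adjusted p = 0.0215 by edgeR's quasi-likelihood test of the interaction). Without CTL replicate 1 the ER+ rise was 4.44, and with classes taken from clusters it was 0.83 and did not pass the threshold (adjusted p = 0.436, same test).

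*Il34* followed EYFP as *Csf1* did. It was at 25 and 27.7 CPM in EYFP-positive and at 15.2 and 12.1 CPM in EYFP = 0 luminal cells (log2 0.95 ± 0.127, adjusted p = 7.31e-05 by edgeR's quasi-likelihood test). An *Il34* UMI was found in 24.4% and 29.0% of EYFP-positive and 9.33% and 8.12% of EYFP = 0 cells, or 4.01% and 4.72% against 2.37% and 1.65% after thinning to 2000 UMIs. LATS1/2-KO endothelial cells gave 1.15% and 0.784%, and 0% after thinning. The cluster split was also present: *Il34* was at 29.0 and 31.3 CPM in EYFP-positive and 33.5 and 31.9 CPM in EYFP = 0 cells of cluster 11, and at 8.21 and 10.4 CPM against 5.10 and 3.58 CPM in cluster 10.

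Among the other classes *Il34* marked a different part of the stroma than *Csf1*. Fibroblasts had 24.6 and 7.86 CPM in CTL, from 7 UMIs and 1 UMI, and 27.6 and 14.1 CPM in LATS1/2-KO, overlapping groups whose difference was 0.12 with an interval of -1.28 to 1.52 (adjusted p = 0.955 by edgeR's quasi-likelihood test). Myofibroblast-type fibroblasts of LATS1/2-KO mice had 40.1 and 27.7 CPM and inflammatory-type fibroblasts 9.30 and 9.86 CPM, so that the type with less *Csf1* had more *Il34* (log2 1.61 ± 0.346, adjusted p = 3.61e-05, same test, and 0.181 with DESeq2). EYFP-positive luminal cells were 0.20 ± 0.230 above all fibroblasts (interval -0.29 to 0.70, adjusted p = 0.466, same test) and 1.22 ± 0.316 above the inflammatory type (adjusted p = 0.000303, same test). The last difference was 0.58 with cells thinned to 2000 UMIs (adjusted p = 0.339, same test), and it missed the threshold with DESeq2 (adjusted p = 0.0982). Clusters did not split the fibroblast types, and the only fibroblast cluster counted as inflammatory-type as a whole. The value of 0.03 with classes taken from clusters is thus against all fibroblasts. The highest *Il34* levels were in perivascular cells of LATS1/2-KO mice, at 136 and 120 CPM, from 13 and 14 UMIs in 24 and 26 cells.

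Basal cells had *Il34* at 6.70 and 7.85 CPM in CTL and 8.36 and 3.94 CPM in LATS1/2-KO, with overlapping groups (log2 -0.35 ± 0.486, adjusted p = 0.612 by edgeR's quasi-likelihood test). The basal and luminal effects differed by -5.22 ± 0.637 (adjusted p = 0.00108) and the fibroblast and luminal effects by -4.75 ± 0.971 (adjusted p = 0.0247, both by the interaction in edgeR's quasi-likelihood test). Of all *Il34* UMIs, luminal cells held 52.9% and 48.3% of the 51 and 29 in CTL and 79.0% and 78.4% of the 672 and 709 in LATS1/2-KO. Of the UMIs of all genes they held 91.6% and 90.9% in CTL and 73.9% and 65.7% in LATS1/2-KO.

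*Csf2* was rare. CTL luminal cells held 0 UMIs and 1 UMI in 4301 and 3093 cells, and LATS1/2-KO luminal cells held 36 and 10 UMIs in 20 and 7 cells. The pooled ratio of CPM was 64.7, with a 95% counting interval of 11 to 2609, and the test gave an adjusted p of 0.0110 (edgeR's quasi-likelihood test, n = 2 per condition). Of the 46 UMIs, 33 lay in 14 EYFP-positive cells, and the ratio of EYFP-positive to EYFP = 0 cells was 3.96 (counting interval 2.03 to 8.19). Single cells held up to 6 UMIs, so the sums rest on few cells. All other classes together held 2 and 4 *Csf2* UMIs in the LATS1/2-KO libraries.

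*Csf3* went the other way in luminal ER- cells. CTL luminal cells held 2301 and 1593 *Csf3* UMIs, 53.7 and 41.1 CPM, and LATS1/2-KO luminal cells held 396 and 286, or 13.8 and 9.73 CPM. Both LATS1/2-KO libraries were below both CTL libraries, and *Csf3* fell by 2.22 ± 0.218 on the log2 scale (adjusted p = 0.000751 by edgeR's quasi-likelihood test). In ER- cells it was at 82.6 and 66.4 CPM in CTL and 15.5 and 9.71 CPM in LATS1/2-KO (log2 -2.92 ± 0.225, adjusted p = 6.15e-05, same test). In ER+ cells it was at 8.89 and 9.43 CPM in CTL and 8.80 and 8.48 CPM in LATS1/2-KO (log2 -0.16, interval -0.64 to 0.31, adjusted p = 0.544, same test). The effect in ER+ cells was 2.76 ± 0.371 higher than that in ER- cells (adjusted p = 0.00173, same test of the interaction), although with classes taken from clusters ER+ cells fell too (log2 -1.15, adjusted p = 0.0225, same test).

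Luminal cells that carried *Csf3* held fewer transcripts each. A *Csf3* UMI was found in 9.44% and 11% of CTL and 8.73% and 6.99% of LATS1/2-KO luminal cells, or 4.63% and 4.0% against 2.36% and 1.81% after thinning to 2000 UMIs. T and NK cells gave 1.17% and 1.30% in CTL and 2.63% in LATS1/2-KO replicate 2, or 0.694%, 1.41% and 0% after thinning. The luminal cells with a UMI held a mean of 5.67 and 4.70 UMIs in CTL and 1.60 and 1.59 in LATS1/2-KO. *Csf3* showed no detectable difference with EYFP, at 15.6 and 8.70 CPM in EYFP-positive and 12.9 and 10.5 CPM in EYFP = 0 cells (log2 0.01, interval -0.32 to 0.35, adjusted p = 0.955 by edgeR's quasi-likelihood test). Its levels also overlapped between clusters 10 and 11, at 13.3 and 10.9 against 17.8 and 8.69 CPM in ER- cells.

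Basal cells had *Csf3* at 28.7 and 26.2 CPM in CTL and 2.39 and 3.07 CPM in LATS1/2-KO, a fall by 3.31 ± 0.373 on the log2 scale (adjusted p = 6.79e-05 by edgeR's quasi-likelihood test). The 30 UMIs of each CTL basal sum came from 4 and 6 cells, and 1 cell alone held 27 and 19 of them, so this value rests on few cells. Luminal markers summed to 8555 and 8120 CPM in CTL and 4773 and 5041 CPM in LATS1/2-KO basal sums, and free RNA was at most 21.0% and 28.6% against 11.6% and 9.42% of them by an upper estimate. With free RNA subtracted the difference was -3.88. Endothelial cells had the highest *Csf3* levels, at 90.2 and 101 CPM in CTL and 301 and 132 CPM in LATS1/2-KO. Both LATS1/2-KO libraries were above both CTL libraries, but the difference of 1.20 ± 0.389 missed the threshold (adjusted p = 0.110, same test), and it passed without CTL replicate 2, whose 27 UMIs came from 2 cells (1.29, adjusted p = 0.00943), or without LATS1/2-KO replicate 2 (1.71, adjusted p = 0.000868), and it was 0.53 without LATS1/2-KO replicate 1 (adjusted p = 0.500, same test). The endothelial effect stood 3.59 ± 0.547 above the luminal effect (adjusted p = 0.00464, same test of the interaction). Endothelial cells held 0.906% and 1.49% of the *Csf3* UMIs of the CTL libraries and 47.8% and 33.8% of those of the LATS1/2-KO libraries. Of all UMIs they held 0.521% and 0.625% in CTL and 3.60% and 2.94% in LATS1/2-KO. Fibroblasts had 9.5 and 2.85 CPM in LATS1/2-KO, below the EYFP-positive luminal cells (log2 0.89 ± 0.309 for luminal over fibroblast, adjusted p = 0.0227, same test, and 0.214 with DESeq2).

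**Figure D3:**
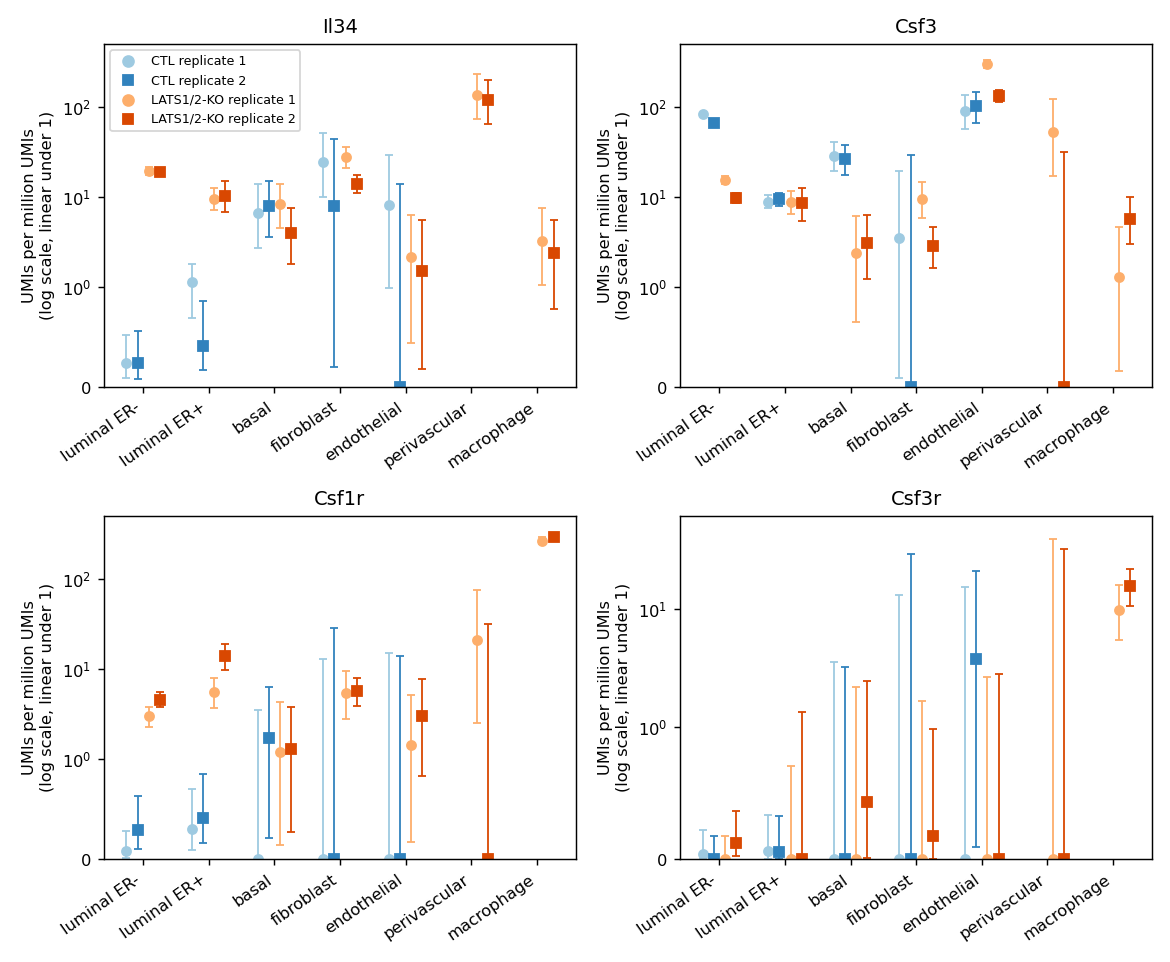
*Il34*, *Csf3*, *Csf1r* and *Csf3r* in CPM (vertical axes, log scale, linear under 1) in 7 cell classes (horizontal axes), 1 point per library with at least 20 cells of the class, with 95% Poisson intervals for counting error. *Il34* separates LATS1/2-KO from CTL in luminal cells, *Csf3* is highest in endothelial cells, and *Csf1r* and *Csf3r* are highest in macrophages.

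**Figure D4:**
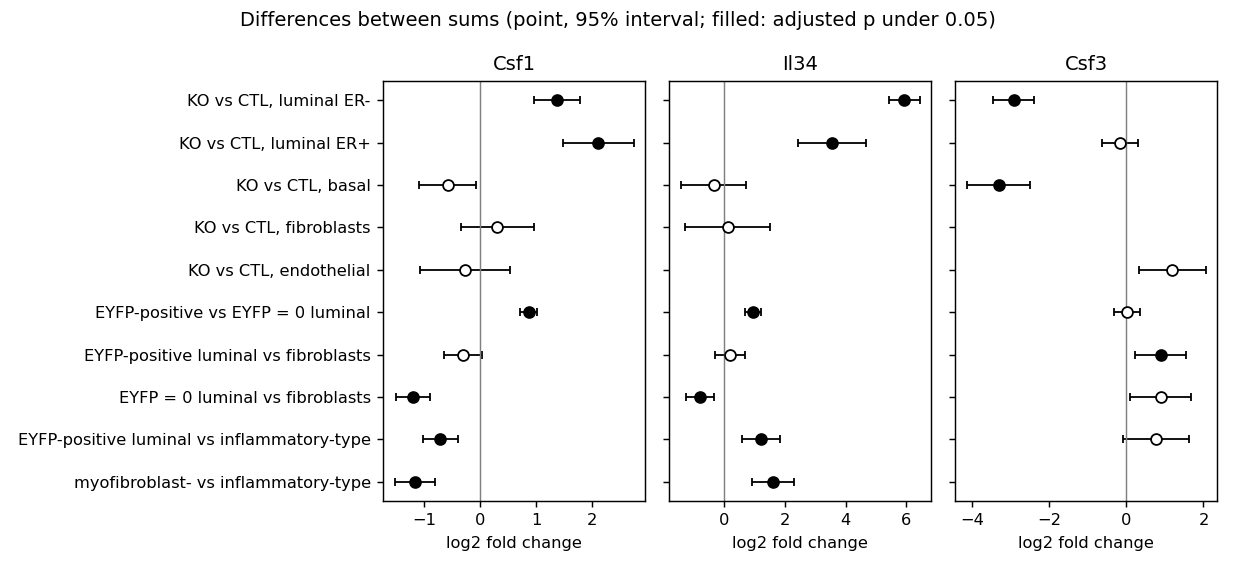
Log2 fold changes (horizontal axes) of *Csf1*, *Il34* and *Csf3* in 10 comparisons (vertical axis), each a point with its 95% interval from edgeR's quasi-likelihood test; filled points have an adjusted p under 0.05, and a row is empty where the gene had too few counts. Against CTL, *Csf1* and *Il34* pass the threshold in the luminal comparisons and in no other class shown, and *Csf3* falls in luminal ER- and basal cells.

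*Csf1r*, the receptor of both ligands, marked the macrophages. It was at 302 and 240 CPM in the 8 and 7 CTL macrophages, from 12 UMIs in each library, and at 268 and 291 CPM in the 329 and 440 LATS1/2-KO macrophages. The groups overlapped, and with fewer than 20 CTL cells per library no test was run. A *Csf1r* UMI was found in 52.9% and 52.3% of LATS1/2-KO macrophages, at medians of 3970 and 3757 UMIs per cell, and in 37.8% and 43.1% after thinning to 2000 UMIs. The genes that ran most like *Csf1r* over the 24 sums were macrophage genes, *C1qb* (Pearson r = 0.918), *C1qa* (0.915), *Aif1* (0.915), *F13a1* (0.913) and *Ms4a6c* (0.901).

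Low counts of *Csf1r* also rose in LATS1/2-KO luminal cells. They held 7 and 14 UMIs in CTL and 122 and 193 in LATS1/2-KO, 0.163 and 0.361 against 4.26 and 6.57 CPM (log2 4.16 ± 0.414, adjusted p = 0.000775 by edgeR's quasi-likelihood test). The rise passed the threshold in ER- cells (log2 4.05 ± 0.503, adjusted p = 0.000478) and in ER+ cells (log2 4.56 ± 0.582, adjusted p = 0.00225, same test), and ER+ cells of LATS1/2-KO had 5.55 and 14.0 CPM. The size rested on single libraries, at 3.34 without CTL replicate 1 and 5.14 without CTL replicate 2 in ER- cells, 4.79 without CTL replicate 2 in all luminal cells and 3.85 without LATS1/2-KO replicate 2 in ER+ cells. Of the 29 and 38 *Csf1r* UMIs of LATS1/2-KO ER+ cells, 24 and 37 lay in cluster 11, and the 10 richest cells held 48.3% and 71.1%. The ER+ cells of cluster 9 had 1.49 and 0.845 CPM. EYFP-positive cells had 6.12 and 9.48 CPM and EYFP = 0 cells 3.29 and 4.30 CPM (log2 1.02 ± 0.189, adjusted p = 0.000904, same test). That call was lost with DESeq2 (adjusted p = 0.0507) and with cells thinned to 2000 UMIs (adjusted p = 0.0791). A *Csf1r* UMI was found in 3.75% and 5.09% of LATS1/2-KO luminal cells, 0.761% and 1.51% after thinning, against 0.766% and 1.57% of LATS1/2-KO endothelial cells, 0% and 0.488% after thinning, and 2.97% and 2.69% of LATS1/2-KO fibroblasts, 1.53% and 0.673% after thinning. The luminal and fibroblast shares thus overlapped after thinning, as did their levels of 4.26 and 6.57 against 5.43 and 5.69 CPM.

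Macrophage RNA was present in the luminal sums as well. Of 11 macrophage marker genes tested there (12 listed), 9 were higher and 1 lower in LATS1/2-KO than in CTL luminal cells, against 31.4% and 29.2% of all genes, and the summed level of the list was 299 and 289 CPM in CTL, 364 and 258 CPM in LATS1/2-KO luminal cells and 14578 and 15019 CPM in LATS1/2-KO macrophages. The C1q genes, which encode complement subunits made by macrophages, rose beside *Csf1r*, from 25 and 27 UMIs in CTL luminal cells to 416 and 473 in LATS1/2-KO. Per UMI of *C1qa*, *C1qb* and *C1qc*, *Csf1r* had 0.0440 and 0.0422 UMIs in LATS1/2-KO macrophages, 0.0426 and 0.0429 in basal cells and 0.0357 and 0.0430 in endothelial cells, where basal and endothelial values rest on 2 to 4 *Csf1r* UMIs per library. It had 0.293 and 0.408 UMIs in luminal cells, 0.645 and 0.685 in EYFP-positive luminal cells, 0.192 and 0.241 in EYFP = 0 luminal cells and 0.128 and 0.148 in fibroblasts. CTL luminal cells, with 7 and 14 *Csf1r* UMIs, had 0.280 and 0.519 per C1q UMI, so LATS1/2-KO and CTL luminal cells overlapped in this ratio and both were above macrophages. The part of macrophage RNA in the luminal rise of *Csf1r* was not tested further. Between EYFP-positive and EYFP = 0 cells, 0 of 11 macrophage markers were higher and 6 were lower, and 0 of 10 fibroblast markers were higher and 8 were lower, against 18.5% and 20.4% of all genes, while *Csf1r* was higher. Of the 106 and 131 LATS1/2-KO luminal cells with a *Csf1r* UMI, 16.0% and 25.2% also had a C1q UMI, against 13.4% and 16.0% of the other luminal cells, which were shallower.

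**Figure D5:**
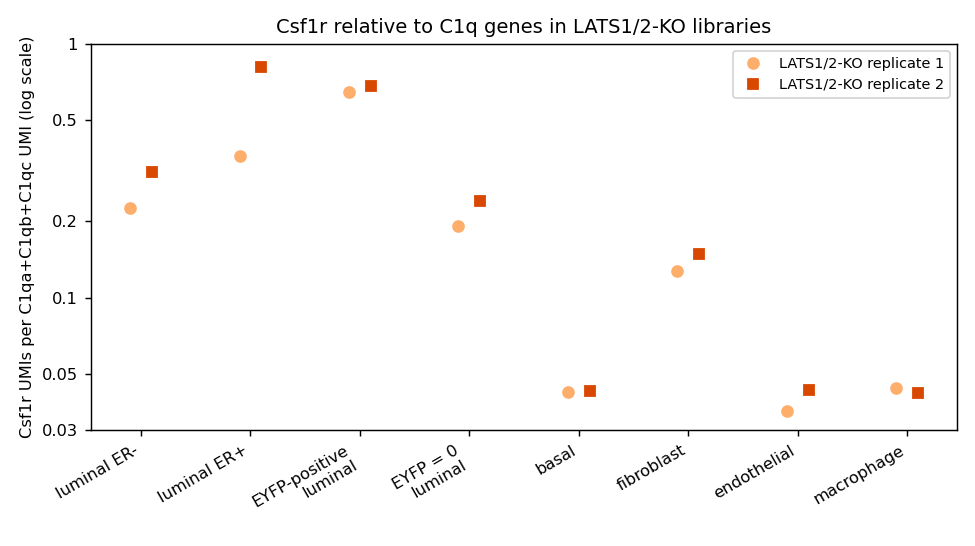
*Csf1r* UMIs per UMI of *C1qa*, *C1qb* and *C1qc* together (vertical axis, log scale) in 8 cell classes (horizontal axis) of the 2 LATS1/2-KO libraries, 1 point per library. Basal cells, endothelial cells and macrophages lie between 0.0357 and 0.0440, and luminal cells and fibroblasts lie above.

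*Csf3r*, the receptor of CSF3, was found in neutrophils and macrophages. LATS1/2-KO replicate 2, the only library with more than 1 neutrophil, had 15 *Csf3r* UMIs in 10 of its 18 neutrophils. Macrophages of LATS1/2-KO mice had 15 and 32 UMIs, 9.68 and 15.4 CPM, in 3.95% and 6.59% of cells. Luminal cells held 2 UMIs and 1 UMI in CTL and 0 and 4 in LATS1/2-KO, and EYFP-positive luminal cells held 0 in both LATS1/2-KO libraries. *Csf3r* was below the count filter in all 14 comparisons, so no change was tested.

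Of 5 genes for cytokine receptor chains and IL-34 binding partners, 3 were higher and 2 lower in LATS1/2-KO luminal cells, where 31.4% of all genes were higher and 29.2% lower, with a list median of 2.35 against 0.00 over all genes (log2). *Sdc1*, a syndecan that binds IL-34, rose by 2.35, and the beta chain genes *Csf2rb* and *Csf2rb2* rose by 3.12 and 3.63. *Csf2ra*, the GM-CSF receptor alpha chain, fell by 1.36 and *Ptprz1*, a phosphatase that binds IL-34, fell by 4.27, all by edgeR's quasi-likelihood test with adjusted p of 0.000237 to 0.00448. Between EYFP-positive and EYFP = 0 cells *Sdc1* was 0.22 higher, *Csf2rb* 2.11 and *Ptprz1* 1.69 lower (adjusted p of 0.00678 to 0.0451, same test). In endothelial cells *Csf2rb* and *Csf2rb2* rose by 1.96 and 1.69 (adjusted p = 0.00778 and 0.0138, same test).

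Of 13 genes of CSF1R signalling and myeloid regulation, 5 were higher and 4 lower in LATS1/2-KO luminal cells, shares near the 31.4% and 29.2% over all genes, with a median of 0.01 against 0.00 over all genes. Among the higher ones were *Spi1* (2.58), *Tyrobp* (2.5) and *Inpp5d* (1.38), of which *Tyrobp* is also in the macrophage marker list, and the lower ones were *Irf8* (-2.21), *Cebpa* (-1.26), *Runx1* (-0.72) and *Grb2* (-0.34), with adjusted p of 0.000417 to 0.0278 for those named by edgeR's quasi-likelihood test. Between EYFP-positive and EYFP = 0 cells 0 of 11 were higher and 7 lower, where 18.5% of all genes were higher and 20.4% lower. Of 4 genes that shed cell-surface CSF1 and other ligands, *Adam17*, the protease that releases membrane CSF1, rose by 0.37 and its partner *Rhbdf2* fell by 0.60 in LATS1/2-KO luminal cells (adjusted p = 0.0134 and 0.00689, same test), while *Adam10* (-0.22) and *Rhbdf1* (0.04) did not pass.

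Among 12 other attractants of monocytes and macrophages, 9 were higher and 3 lower in LATS1/2-KO luminal cells, against 31.4% and 29.2% of all genes, with a median of 2.20 against 0.00 over all genes. The chemokines *Ccl8* (7.31), *Ccl2* (6.19), *Ccl7* (4.22), *Ccl3* (2.76), *Ccl4* (2.01) and *Cxcl12* (1.51), the acute phase gene *Saa3* (6.05), *Anxa1* (2.40) and *Mif* (0.38) rose, and complement *C3* (-3.35), *Cx3cl1* (-1.78) and *Vegfa* (-0.70) fell, with adjusted p of 2.84e-05 to 0.0249 by edgeR's quasi-likelihood test. Of 10 fibroblast markers, 8 were higher and 0 lower in the same comparison, at a summed level of 49.98 and 275 CPM in CTL and 254 and 226 CPM in LATS1/2-KO luminal cells, against 44073 and 32775 CPM in LATS1/2-KO fibroblasts. The part of fibroblast and macrophage RNA in these attractants was not tested. Between EYFP-positive and EYFP = 0 cells *Ccl2* (0.74) and *Anxa1* (0.85) were higher and 5 of the 12 were lower, where 18.5% of all genes were higher and 20.4% lower. Against fibroblasts of the same mice, EYFP-positive luminal cells had more *Anxa1* (2.42) and *Cx3cl1* (0.86) and less of 9 of the 12, among them *Saa3* (-8.27), *Ccl8* (-7.63), *Cxcl12* (-6.99), *Ccl7* (-6.54) and *Ccl2* (-3.08), with adjusted p of 1.33e-11 to 0.00875 (same test). In that comparison 28.3% of all genes were higher and 31.8% lower. *Mif* (0.27, adjusted p = 0.192, same test) did not pass, as *Csf1* and *Il34* did not.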

How the data were processed

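UMI counts per gene and barcode of 4 mammary gland libraries were used as deposited by the authors. They are raw counts made with Cell Ranger, version 6.1.2 per the file headers and 3.1.0 in the submitters' processing notes, on mm10. Cells needed over 500 detected genes and less than 20% mitochondrial UMIs, the limits the study used. The libraries shared 4 to 12 barcodes per pair. No doublets were removed: Scrublet called only 85 cells at its own threshold and had not worked, so that removal of the 911 cells with the highest 5% of scores served as an alternative.

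Each cell took the class whose markers were most enriched, with at least 3 markers detected and an enrichment at least 2 times that of the next class. Of 145 markers, 144 were in the files. The gate as first written classed only 3907 of 18200 cells. It was repaired after the class sizes, but not the levels of the 6 genes, had been seen, and then left 974 cells without a class. Clusters are those of scanpy's Leiden method (20 principal components, resolution 0.4) and took the commonest gate class of their cells in the alternative that uses them. The variable genes used for clustering were chosen without leaving out the members or EYFP. EYFP-positive means at least 1 EYFP UMI in the full counts, also where cells were thinned.

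Counts were summed per class and mouse where each sum had at least 20 cells, scaled by TMM, filtered by filterByExpr and tested with edgeR 4.0.16 (quasi-likelihood, Benjamini-Hochberg, 0.05). LATS1/2-KO against CTL had condition as the only term, and comparisons within LATS1/2-KO mice had the mouse as block, which leaves 1 residual degree of freedom per gene beside the spread shared across genes. Macrophages, perivascular and T/NK cells had too few cells in 1 or both conditions. Replicates are separate mice, so p-values rest on the spread between 2 mice per condition and on the spread shared across genes. In the comparisons with inflammatory-type fibroblasts the test used the shared spread alone. Those p-values do not measure the spread of a gene between the mice. Intervals of shares and levels are 95% exact binomial and Poisson intervals and cover counting error only; a count of 0 allows up to 3 counts.

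On simulated counts the tests recovered most changes in luminal sums and clearly fewer in fibroblast sums, where CTL cells are few. The named genes are the 6 members, fixed pathway lists, the model check and the 5 genes most like *Csf1* and *Csf1r* over the sums (mean of at least 5 CPM). Some list genes are counted but not reported singly here. The members, lists and comparisons were chosen with earlier results of these data known. Tools were R 4.3.3, DESeq2 1.42.0, limma 3.58.1, Python 3.11.15, numpy 2.4.6, scipy 1.17.1, pandas 2.3.3 and scanpy 1.11.5. Alternatives were DESeq2, RLE size factors, library totals, no low-count filter, the replicate block, thinned cells, other gates, a 10% mitochondrial limit, at least 2 EYFP UMIs, free RNA subtracted and each library left out.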

Additional observations from a re-analysis of the deposited data

Results flagged for a closer look

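The effect of LATS1/2-KO on a gene differed between cell classes in 6 tests of the interaction of class and condition, all by edgeR's quasi-likelihood test with Benjamini-Hochberg adjustment. These 6 are the ones that passed, and further interactions of the members were tested and did not pass. The share of all genes that passed was not counted, so the 6 are not shown to be particular to the members. The *Csf1* effect was below 0 in basal cells (-0.58, which missed the threshold) and above 0 in luminal cells (1.91). These effects differed by -2.35 ± 0.377 on the log2 scale (adjusted p = 0.00462). *Il34* moved less in ER+ than in ER- luminal cells (-2.36 ± 0.569, adjusted p = 0.0215), less in basal than in luminal cells (-5.22 ± 0.637, adjusted p = 0.00108) and less in fibroblasts than in luminal cells (-4.75 ± 0.971, adjusted p = 0.0247). *Csf3* moved up in ER+ relative to ER- luminal cells (2.76 ± 0.371, adjusted p = 0.00173) and in endothelial relative to luminal cells (3.59 ± 0.547, adjusted p = 0.00464). Each rests on 2 mice per condition, and the same mice give both classes. The test had no term for the mouse and took the sums of 1 mouse as separate samples.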

How the results depend on the processing

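Of the alternatives to the main results, 208 kept direction and side of the threshold, 7 passed where the main result had not, 4 shares moved and 1 reversed. For the single members and counts of genes, 671 kept, 25 passed where the main result had not, 15 lost the call, 32 counts moved and 1 reversed. The reversals came with classes taken from clusters, for *Csf1* in ER+ cells (-0.094) and for *Csf1r* in EYFP-positive luminal cells against inflammatory-type fibroblasts (-0.056). In that setting cluster 11 counted as ER- with its gated ER+ cells. The only fibroblast cluster counted as inflammatory-type, so the *Csf1r* value is against all fibroblasts. The reversals were not tested further. *Csf1* in EYFP-positive luminal cells against fibroblasts passed the threshold with thinned cells (-0.47), classes by cluster (-0.51) and a gate margin of 4 times (-0.41). *Csf1* in basal cells passed with classes by cluster (-1.18), free RNA subtracted (-1.25), the margin of 4 times (-1.03) and without the highest Scrublet scores (-0.73). The macrophage difference was 6.33 points with the gate as first written, 6.82 with the margin of 4 times and 8.55 with no margin, and the gap in cells with a *Csf1* UMI by EYFP was 7.28 points with thinned cells.

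Leaving out each library, *Csf1* differed between LATS1/2-KO and CTL by 1.60 to 2.27 in luminal, 1.13 to 1.65 in ER-, 1.77 to 2.54 in ER+, -0.71 to -0.45 in basal, 0.16 to 0.58 in fibroblast and -0.33 to -0.13 in endothelial sums. *Il34* between EYFP-positive luminal cells and inflammatory-type fibroblasts, between EYFP = 0 luminal cells and fibroblasts and between fibroblast types lost the call with DESeq2, and so did *Csf3* between EYFP-positive luminal cells and fibroblasts. Scaling by library totals alone moved the median of all genes by up to 0.37 (ER- cells).

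Same-numbered mice did not deviate together (correlation -0.156 over 5825 genes in luminal sums) and no label pairs them. With the replicate number as block 7785 genes were called in luminal cells against 8711 without it, and with the numbers crossed 8710. Without the mouse as block, EYFP-positive against EYFP = 0 luminal cells gave 1299 calls against 5030, ER- cells alone 1150 against 4956 and the fibroblast types 1425 against 2214. The block changed no other call of a member except *Csf1r* by EYFP, *Csf1r* against inflammatory-type fibroblasts, *Il34* of EYFP = 0 cells against fibroblasts and *Csf3* of EYFP-positive cells against fibroblasts, all lost without it.

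With DESeq2 the counts of called genes fell to 1504 from 3168 in basal cells, 249 from 432 in endothelial cells, 1976 from 5030 by EYFP and 578 from 2214 between fibroblast types, 1624 from 4956 by EYFP in ER- cells, and to 4783, 3936 and 4263 from 7724, 7170 and 6779 for luminal cells against fibroblasts. Thinning to 2000 UMIs lowered them to 5699 in luminal, 5458 in ER-, 1953 in ER+, 1194 in basal, 245 in fibroblast and 242 in endothelial sums, to 2724 by EYFP, 2353 by EYFP in ER- cells, 5683 and 4677 for EYFP-positive and EYFP = 0 cells against CTL, 4948 and 4231 for EYFP-positive cells against all and inflammatory-type fibroblasts, and 1223 between fibroblast types. Fibroblast calls of 496 became 282 with free RNA subtracted, 250 with the margin of 4 times, 908 with no filter, 65 without CTL replicate 1 and 85 without CTL replicate 2, and endothelial calls became 242 with free RNA subtracted and 663 without CTL replicate 1. ER+ calls fell from 5032 to 3187 without CTL replicate 1. Clusters named as planned, by their summed counts, put luminal clusters in other classes, so that naming was dropped after it was seen and no result was computed with it.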
